A study of Homo sapiens with 6 samples.

Results

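Of the 15940 m6A peaks mapped in TE-10 cells, 5429 were placed in coding exons, and 1751 of these (32.3%, 95% Wilson interval 31.0 to 33.5%) lay in genes that carried several peaks. A gene counted as a multi-peak gene when the deposited list gave it 3 or more peaks in coding exons, the 5' untranslated region (UTR) or the 3' UTR together, and at least 1 of them in a coding exon. This rule took 709 host genes. The other 3678 coding-exon peaks belonged to 3148 genes with 1 or 2 such peaks, called sparsely marked genes here. The members were chosen by the peak list itself, so their number, width and spacing are descriptions without a test.

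N6-methyladenosine (m6A) is a methyl mark on adenosines inside mRNA. It is written in the nucleus by a complex whose catalytic subunit is METTL3, is read by YTH-domain proteins, among others, and is known for its effect on how long an mRNA lasts. In most mammalian cells the mark gathers near stop codons, at the start of the 3' UTR and in unusually long internal exons, and is sparse in short exons that lie close to splice junctions. Readers of the YTHDF family act in the cytoplasm, and YTHDC1 acts in the nucleus.

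TE-10 is an established cell line of human esophageal squamous epithelium. The peaks came from cells with normal METTL3, from 1 input library and 2 immunoprecipitations labelled with the antibody catalogue numbers 202003 and 202004. Expression was measured in 1 control RNA-seq library with normal METTL3 and in 2 libraries in which METTL3 was reduced by a stably expressed short hairpin RNA, numbered 1 and 2 by their titles and called knockdown 1 and knockdown 2 here, with polyadenylated RNA as the source throughout. Nothing in the labels says whether these libraries came from separate cultures, so a p-value measures only the spread between these libraries, which may be technical.

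METTL3 itself had a control value of 20.81 and values of 8.35 and 4.99 in knockdown 1 and knockdown 2, and it carried no exonic peak. All 10 squamous markers on the list (KRT5, TP63 and others) were at 1 or more in every library, and summed to 4707, 4533 and 2914 in the control, knockdown 1 and knockdown 2. Among the other cell type lists, at most 1 marker per list reached 1 in any library, and the summed values stayed between 0.11 and 19.81. Knockdown 2 stood apart from both other libraries. It had 29 genes at 5 or more that were under 0.5 in the other libraries, the cell cycle inhibitor CDKN2A among them (0.04, 0 and 144.68), whereas the control and knockdown 1 had 0 such genes. None of the 29 was a host gene, and each knockdown result below is given for both libraries separately.

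The 709 host genes carried 2551 peaks in exons and UTRs, of which 1751 were in coding exons, 585 in the 3' UTR and 215 in the 5' UTR. A further 219 peaks in introns, 75 upstream and 9 downstream were annotated to the same genes. Most hosts passed the threshold narrowly: 448 had exactly 3 exonic or UTR peaks, 174 had 4, 53 had 5 and the rest 6 or more, up to 13. A 3' UTR peak was listed for 407 hosts, a 5' UTR peak for 202 and both for 99, and 199 hosts carried coding-exon peaks alone. Coding-exon peaks numbered 1 in 166 hosts, 2 in 235, 3 in 201, 4 in 71 and 5 or more in 36. Among the members, 15 peaks in 9 hosts were annotated to non-coding transcripts, and 3 hosts (ASMTL, LOC100132287 and ZNF26) had peaks on more than 1 chromosome. By the same count, 123 further genes had 3 or more exonic or UTR peaks but none in a coding exon.

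FAT1, a giant cadherin that acts in cell adhesion and Hippo signalling, carried the most members, 13, and no UTR peak. They formed separate groups along the gene. The first 3 lay 14494 to 16961 bases from the annotated start, the nearest at chr4:187629966-187631020 (1055 bases wide). The next 6 followed each other closely at chr4:187538919-187542749, from 102449 to 105932 bases from the start, and the last, at chr4:187509632-187510400 (769 bases), lay 134971 bases from the start. The deposited expression values of FAT1 were 5.49, 5.62 and 3.70. Here and below, 3 values given together are those of the control, knockdown 1 and knockdown 2 in this order.

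AHNAK2, a scaffold protein of very large size encoded mostly by a single exon, carried 12 members and 1 peak in the 3' UTR. They lay between chr14:105404980-105405322 and chr14:105419858-105421235, with widths from 206 to 1378 bases and a median gap of 743 bases. Its values were 3.88, 2.98 and 2.04, lowest in knockdown 2. ZNF469, a zinc finger protein linked to corneal thickness, had 11 members spread from 482 to 11720 bases from its start, although the expression table lists it at 0, 0.02 and 0. FLG, the filaggrin precursor of the cornified epidermis, had 10 members at 0.05, 0.07 and 0.01. Both genes thus had long series of peaks at values near 0 in all 3 RNA-seq libraries.

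CSPG4, a cell surface proteoglycan, KMT2D, a histone H3 lysine 4 methyltransferase listed under its older symbol MLL2, and PLEC, the cytolinker plectin, carried 9 members each. CSPG4 was at 0.72, 0.71 and 0.49, KMT2D at 2.94, 2.65 and 2.31, and PLEC at 11.44, 12.51 and 6.34. In CSPG4, 7 members stood within chr15:75979738-75983230, and a further member of 2182 bases lay at chr15:75967581-75969762. In KMT2D the members ran from chr12:49445233-49445580, 3701 bases from the start, to chr12:49420211-49420740, 28632 bases from it. HRNR, the filaggrin-like protein hornerin, carried 7 members at values of 0.02, 0.01 and 0.01. A further 8 hosts had 6 members each, and the first 4 of them by symbol were DIDO1, a chromatin-binding protein with a PHD finger (15.53, 16 and 15.28), FAT2, another giant cadherin (1.75, 0.89 and 1.03), KIAA1671 (8.56, 6.47 and 6.72) and RFX7, a transcription factor of the RFX family (4.57, 3.20 and 3.98). SETD1B, SLX4, TICRR and URB2 tied with them. FLG and HRNR encode near-identical tandem repeats, where short reads may be placed in the wrong repeat, so single peak positions in them are uncertain. Read placement in the other hosts, some of which may hold repeats too, was not tested.

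**Figure D1:**
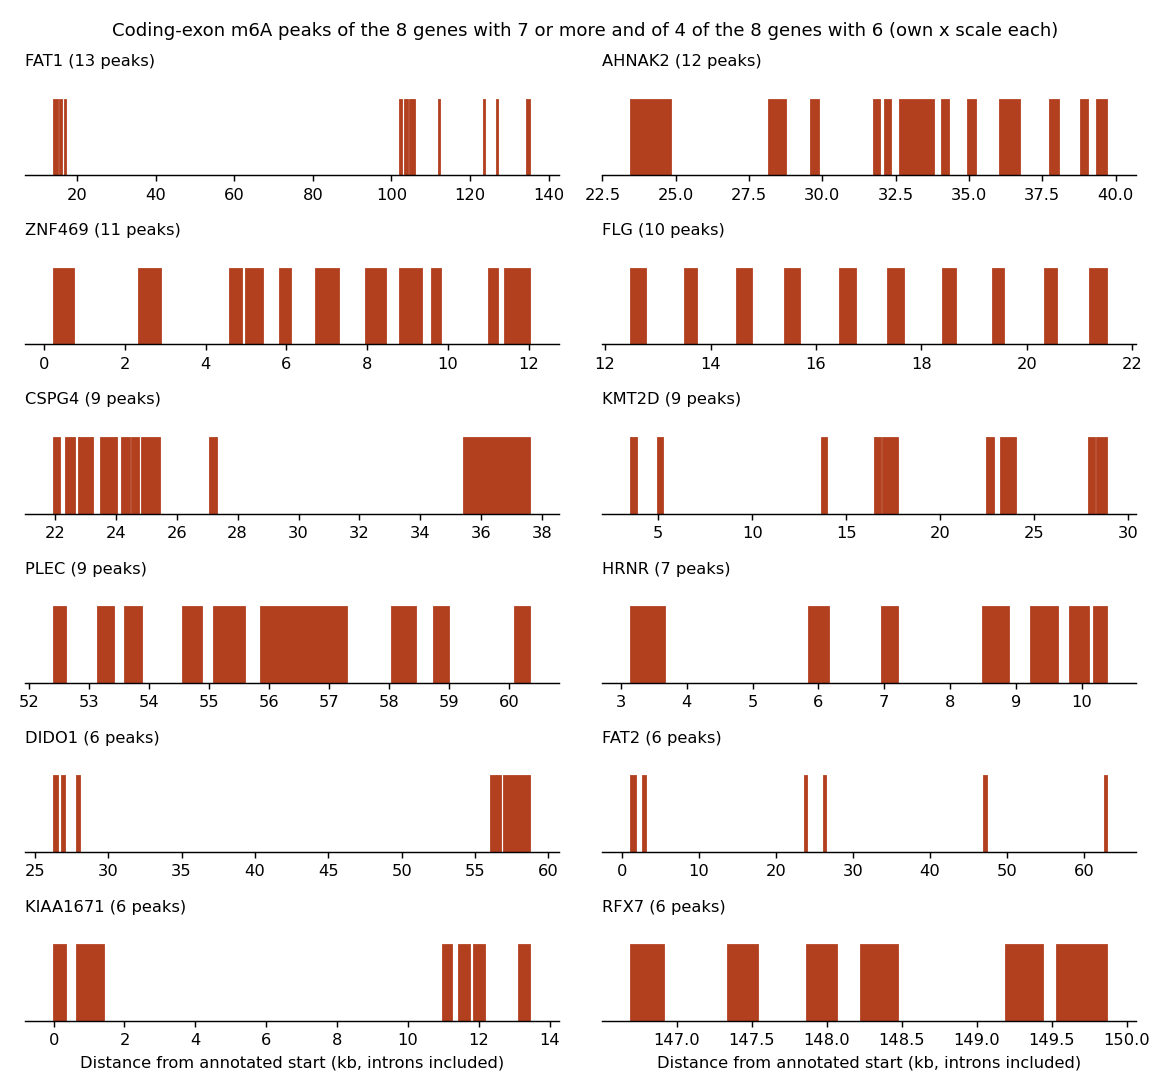
Positions of coding-exon m6A peaks in 12 host genes: the 8 with 7 or more, and the first 4 by symbol of the 8 with 6. Each bar spans 1 peak from its start to its end, the x axis is the distance from the annotated transcript start in kilobases with introns included, and each gene has a scale of its own. FAT1 shows separate groups of peaks, FLG shows 10 peaks at near-equal distances, and the 6 peaks of RFX7 lie within 3177 bases.

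Neighbouring members often stood close together. Members of the same gene were separated by a median gap of 638 bases (1039 gaps, introns included, 95% interval of the median 558 to 725). Of these gaps 58.1% (55.1 to 61.1%) were under 1000 bases, against 51.9% (47.6 to 56.1%) of the 530 gaps in sparsely marked genes. Hosts were chosen for having more peaks per gene, which by itself can shorten gaps. The comparison therefore cannot show closer placement apart from the rule. When peaks of a gene less than 1000 bases apart were joined into runs, 1005 of the 1751 members (57.4%) had at least 1 neighbour in their run. Of these, 489 stood in 143 runs of 3 or more, in 140 genes. Sparsely marked genes have too few peaks for a run of 3 or more, so such runs have no counterpart there. The longest run was the whole series of FLG, 10 peaks at chr1:152276152-152285196. PLEC followed with 8 peaks over 6583 bases. CSPG4 and ZNF469 (chr16:88498474-88503700) had runs of 7, and AHNAK2, FAT1 and RFX7 (chr15:56385615-56388791) runs of 6.

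Peaks covered different shares of these runs. In FLG 30.1% of the run lay inside a peak. In EPPK1, the plakin epiplakin, 5 peaks covered 78.4% of 7340 bases, and it held the widest member of all, 2633 bases. URB2, a ribosome biogenesis factor, had the smallest median gap among the 36 hosts with 5 or more members, 168 bases, with 5 of its 6 members at chr1:229770819-229773931. FAT2 had the largest median gap of these hosts, 15338 bases. The narrowest members were 200 bases wide, the smallest width in the list, and 28 members (1.60%) had that width, the first by symbol in ANKRD33B at chr5:10649559-10649758.

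FLG had the most even spacing of these 36 hosts. Its 10 peak centres were 970 ± 55.1 bases apart (SD, 9 distances, range 904 to 1053), so the SD was 5.68% of the mean. The next most even was SON, a large nuclear speckle protein, at 34.4%, followed by RFX7 at 41.9% and PLEC at 43.7%. Hornerin, like filaggrin a protein of tandem repeats, was at 73.6% over 6 distances. FLG was picked out as the extreme of this ranking after the values were seen. Single peak positions in its repeats are uncertain, as said above, and the part of read placement in this spacing was not tested.

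Members were about as wide as other coding-exon peaks and lay farther from the annotated start. Their median width was 359 bases (348 to 375), against 355 (347 to 363) for the 3678 peaks of sparsely marked genes, and 5.20% and 5.27% were 1000 bases wide or more. The widest after EPPK1 lay in ZNF646, a zinc finger gene (2377 bases, chr16:31088935-31091311), HELZ2, a helicase (2376 bases, chr20:62193963-62196338), CSPG4 and BCL9L, a Wnt coactivator (2156 bases, chr11:118771557-118773712). The median distance to the start was 21745 bases (19825 to 23909) for members and 13916.5 (12953 to 14946) for the others, counted along the genome with introns. These intervals treat peaks of the same gene, which share its start, as independent, so they may be too narrow. Gene length was not measured, so a difference in distance to the start cannot be told apart from a difference in gene length. Under 1000 bases from the start lay 6.85% of members and 11.7% of the other peaks, and at 100000 bases or more 17.1% and 11.4%.

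Within the limit on gaps given above, the gap to the next coding-exon peak was set beside that of sparsely marked genes. The 530 of them with exactly 2 such peaks had a median gap of 896 bases (630 to 1245). Gaps under 200 bases made up 22.9% in hosts and 21.1% in those genes, and gaps of 10000 bases or more 20.6% and 24.9%. Among hosts the median gap was 641 bases with 3 exonic or UTR peaks, 648 with 4, 562 with 5 and 662 with 6 or more. The gap between a 3' UTR peak and the nearest coding-exon peak of the same gene had a median of 1292 bases (937 to 1980) in 406 hosts and 1299 (965 to 1988) in 409 sparsely marked genes, with intervals that overlapped almost fully.

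Peaks just inside the threshold were somewhat wider than those just outside it, with intervals that overlapped narrowly. The 893 members of hosts with exactly 3 exonic or UTR peaks had a median width of 388 bases (363 to 402). The 1726 coding-exon peaks of genes with exactly 2 had 357 (345 to 368), and the 476 members of hosts with 4 had 336 (320 to 358). The median distance to the start was 17888 bases with exactly 3 such peaks and 13596.5 with exactly 2. The median distance was 22286.5 bases in hosts with 4 such peaks, 37364.5 with 5 and 26447.5 with 6 or more. Members were spread over all chromosomes, with 815 on the plus and 936 on the minus strand. Their shares were higher than those of the other coding-exon peaks on chromosome 8 (5.20% against 2.91%), 22 (4.17% and 2.31%), 15 (4.63% and 2.94%) and 16 (6.34% and 4.43%), and lower on chromosome 2 (4.23% and 6.80%) and 12 (3.48% and 5.57%).

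**Figure D2:**
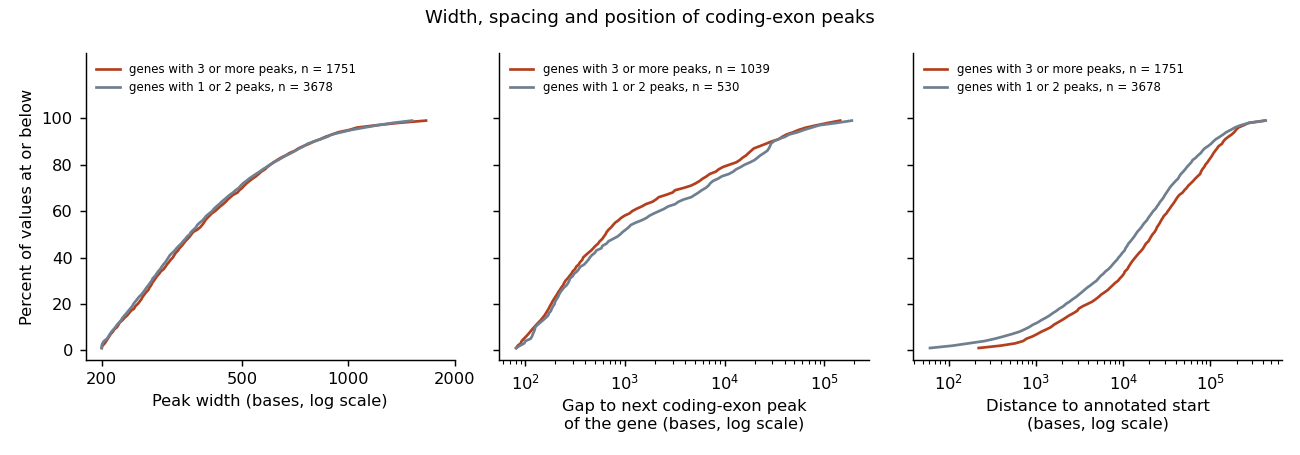
Cumulative distributions of peak width, of the gap to the next coding-exon peak of the same gene and of the distance to the annotated start, in bases on log axes, for coding-exon peaks of genes with 3 or more exonic or UTR peaks and of genes with 1 or 2. The y axis gives the percent of values at or below. The width curves lie on each other (medians 359 and 355), and the curve of distance to the start is shifted to larger values for the members (medians 21745 and 13916.5).

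Host genes were counted in 35 gene classes. Of the 11638 genes at 1 or more in the control, 631 were hosts, a background of 5.42%. The counts below are read against that share with no test, and transcript length was not measured, so class and length cannot be told apart. Altogether 192 hosts belonged to a class and 517 to none. In 24 of the 35 classes the share was above the background, so a share above it was common among these lists.

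Genes that write, read or move chromatin marks were frequent hosts. Among 42 histone methyltransferases, demethylases and acetyltransferases at 1 or more in the control, 15 were hosts (35.7%), with 51 members. KMT2D led with 9, followed by SETD1B, another H3 lysine 4 methyltransferase (6 members at values of 3.51, 4.05 and 3.35; given below as the number of members and then the values), KAT6A, an acetyltransferase (5; 4.17, 3.77 and 3.54), and KMT2A (4; 1.23, 1.06 and 1.36). Chromatin remodellers gave 7 of 32 (21.9%), among them the helicase CHD6 with 5 members (2.76, 2.39 and 2.08) and ARID1A, a subunit of the BAF complex, with 4 (11.59, 11.11 and 11.37). Coregulators and Mediator subunits gave 6 of 29, with NCOA6 and SPEN at 4 members each. The hosts of the first of these classes had a median control value of 4.17, and all 42 genes of the class 6.67.

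Zinc finger genes formed the largest group by number. Of 376 genes at 1 or more whose symbol starts with ZNF, ZSCAN, ZKSCAN, ZBTB or ZFP, 65 were hosts (17.3%). All 72 hosts of this class, the low ones included, held 184 members. Many such proteins carry their whole array of fingers in 1 long last coding exon. ZNF469 led, followed by ZNF608 (5; 0.75, 0.91 and 1.12), ZNFX1, an RNA helicase with zinc fingers (5; 9.36, 9.56 and 6.51), and ZBTB21 (4; 1.47, 1.44 and 2.16). Finger genes share similar sequence, so reads may be assigned to a relative.

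Adhesion and cytoskeletal genes of large size were also hosts. All 4 giant cadherins at 1 or more in the control were hosts, and 7 of the 9 listed at any value, with 33 members. Besides FAT1 and FAT2 these included CELSR3, a planar cell polarity cadherin (4; 0.78, 0.55 and 1.38), and DCHS1, a ligand of FAT4 (3; 0.05, 0.06 and 0.11). Of 27 cytoskeletal linkers and scaffolds 8 were hosts (29.6%) with 41 members, AHNAK2, PLEC, EPPK1 (1.96, 1.26 and 1.14) and EVPL, the envoplakin of the cornified envelope (4; 3.80, 3.54 and 2.31), among them. Protocadherins gave 3 of 6, with PCDH1 at 4 members (1.2, 1.32 and 1.64). Integrins (10 genes at 1 or more), keratins (21) and matrix and basement membrane genes (26) gave 0 hosts. In classes this small a count of 0 is not far from the background of 5.42%, so it is not read as a trait of them.

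The signalling classes below were among the 24 of 35 classes above the background share. Their host counts are small, so they are not read as a trait of signalling genes. Plexins and semaphorins gave 5 of 18 hosts, Wnt and APC pathway genes 6 of 29 (20.7%), receptor tyrosine kinases and ligands 4 of 27 and the Notch pathway 5 of 37 (13.5%). BCL9L and BCL9, which join beta-catenin to its coactivators, had 4 members each, and AXIN1, a scaffold of the destruction complex, had 3 at 29.16, 26.47 and 29.32. In the Notch pathway the hosts were led by the corepressor SPEN (4; 5.07, 3.28 and 8.33), the coactivator MAML2 (3; 1.5, 1.16 and 0.93), the ubiquitin ligase subunit FBXW7 (2; 4.07, 3.12 and 2.76) and the receptor NOTCH1 (2; 3.94, 3.42 and 2.81). Receptor kinase hosts had 1 member each, MET (23.39, 17.74 and 11.73) and EPHA2 (27.00, 28.07 and 22.38) among them, so the other peaks that took them past the threshold lay in UTRs. Solute carriers, which are membrane transporters, gave 12 of 207 (5.80%), near the background.

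The machinery of m6A was itself among the hosts, with 5 of its 21 listed genes (23.8%). ZC3H13, a writer subunit, had 4 members (3.11, 3.40 and 3.89), and RBM15, which guides the writer to its targets, had 3 (2.09, 1.63 and 2.55). CBLL1, a further writer subunit (6.29, 7.44 and 7.31), and YTHDF2, a reader that promotes decay of marked mRNA (21.08, 21.36 and 26.66), had 2 each. METTL3 was no host. METTL14 and WTAP, the partners of METTL3 in the writer complex, carried 1 exonic or UTR peak and no member each. Immediate early genes gave 3 of 26, the transcription factors KLF4 (3; 9.27, 9.66 and 6.80), EGR1 (2; 22.31, 30.30 and 18.55) and MYC (2; 25.72, 24.19 and 32.24).

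Abundant housekeeping classes gave almost no hosts. Translation factors (31 genes), proteasome subunits (38), respiratory chain subunits (97), mitochondrial ribosomal proteins (78) and glycolysis genes (19) gave 0 hosts. Their median control values were 136.8, 72.75, 132.5, 50.49 and 129.7. In the smaller of these classes, such as glycolysis genes, a count of 0 is not far from the background of 5.42%. The class of cytosolic ribosomal proteins was defined by symbol prefix, and its 1 host of 95 was RPS6KL1, a kinase-like gene that is not a ribosomal protein. Squamous differentiation genes gave 2 hosts of 19 at 1 or more, EVPL and PPL, the periplakin of the cornified envelope (2; 12.10, 11.28 and 7.43), and FLG below that value.

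**Figure D3:**
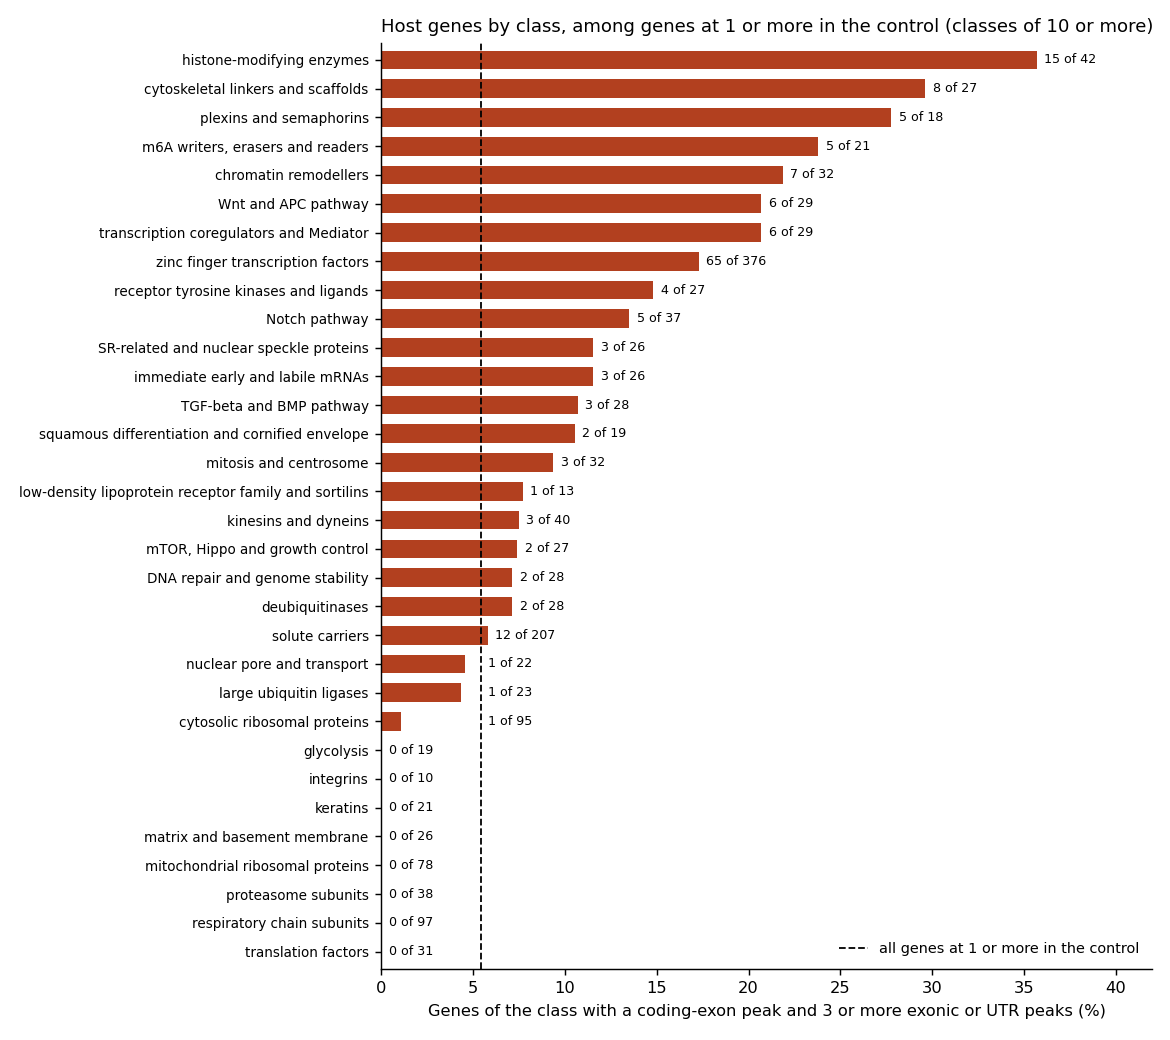
Share of genes with a coding-exon peak and 3 or more exonic or UTR peaks in the classes shown, each with 10 or more genes at a value of 1 or more in the control. Bars give the percent of genes in the class, the labels the counts, and the dashed line the 5.42% over all 11638 such genes. Histone-modifying enzymes lead at 15 of 42, and the 8 classes without a host include translation factors and respiratory chain subunits.

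Host genes were mostly expressed at low to moderate values. A row of the expression table was found for 699 of the 709 hosts. In the control 60.2% of these were between 1 and 10, 68 (9.73%) were under 1, and 2 (0.286%) were at 100 or more. The same shares were 51.2%, 14.0% and 1.82% for sparsely marked genes, and 30.2%, 36.1% and 4.91% for all genes listed. Over the 657 hosts that reached 1 in at least 1 library, the median was 5.69 in the control (5.02 to 6.28), 5.37 in knockdown 1 (4.79 to 5.88) and 5.36 in knockdown 2 (4.90 to 5.85). The 2748 sparsely marked genes that passed this filter had medians of 6.94 (6.55 to 7.30), 6.62 and 6.96, and the 6687 genes with no exonic or UTR peak 10.94 (10.41 to 11.56), 10.53 and 11.51. This order rests on the filter: over all genes listed, the control median was 5.05 for 699 hosts, 5.76 for 3078 sparsely marked genes and 1.18 for 12031 genes with no exonic or UTR peak, so the last group was then the lowest. The unit of the deposited values is not stated, and whether they are scaled by transcript length is unknown, so a difference in level between long and short genes cannot be told apart from a difference in length.

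Among genes with a coding-exon peak, the median in the control was lower in those with more peaks, up to 5. It was 7.54 for genes with 1 exonic or UTR peak in a coding exon, 6.28 for those with 2, 6.14 for hosts with 3, 5.48 with 4, 4.17 with 5 and 4.23 with 6 or more. The intervals of neighbouring groups overlapped from 2 peaks onward: that of the hosts with 3 was 5.32 to 7.26, with 4 4.84 to 6.78, with 5 3.38 to 5.44 and with 6 or more 2.74 to 7.08. Only 28 genes stood in the last group. This series leaves out the 2283 genes with peaks in UTRs but none in a coding exon. Their control median was 13.92 (13.04 to 14.85), above all these groups, so the order does not hold for m6A peaks in general.

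At the low end, 42 of the 699 hosts with a row were under 1 in every library, and they held 135 members. Besides ZNF469, FLG, CSPG4 and HRNR these included BSN, a giant protein of the synapse (4; 0.08, 0.06 and 0.51), ALPK3, a kinase of heart muscle (4; 0.12, 0.11 and 0.09), and FAT4 (3; 0.19, 0.23 and 0.15). At 1 or more in at least 1 library were 657 of 699 hosts, 2748 of 3078 sparsely marked genes and 12375 of all 18249 genes listed. Genes under 1 in every library were thus less frequent among hosts than in both other groups, and are not a trait of hosts. Of the 36 hosts with 5 or more members, 6 were under 1 in the control. KCNJ18, a potassium channel gene with a near-identical relative, was listed at 0 in all 3 libraries and had 1 member. The peaks and the RNA-seq values come from different libraries, and whether the read alignment differed between them was not tested.

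At the high end stood the stress chaperones HSPA1A (256.2, 218.5 and 207.8) and HSPA1B (95.74, 94.85 and 210.7), with 3 and 2 members. They are near-identical copies, so both their peaks and their values are uncertain. CEBPB, a transcription factor encoded by a single exon, had 1 member at 107.6, 109.2 and 86.76.

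**Figure D4:**
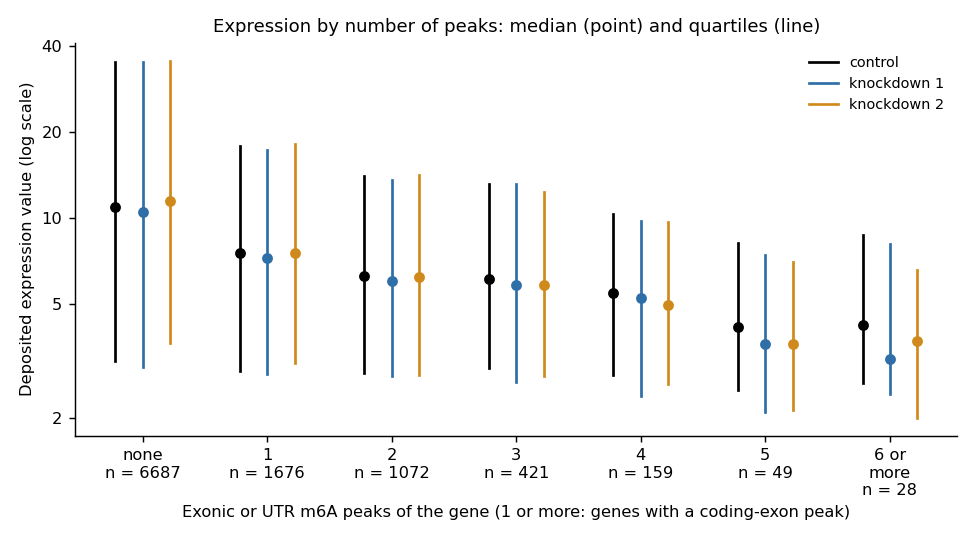
Deposited expression values (log axis, unit not stated) of genes by their number of exonic or UTR m6A peaks in the control and both knockdown libraries. Points are medians over genes and lines run from the first to the third quartile. Genes with 1 or more peaks are those with a coding-exon peak, and genes with UTR peaks alone (control median 13.92) are not shown. The n gives the genes at 1 or more in at least 1 library, and the control median is 10.94 with no peak and 4.23 with 6 or more. Without that filter the medians are 1.18 and 3.51.

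The knockdown comparison asked whether host transcripts differ when METTL3 is reduced. No host gene passed the test. In limma 0 of 657 hosts, and 0 of all 12375 genes tested (a background of 0%), had an adjusted p under 0.05. At an unadjusted p under 0.05 there were 6 hosts, 5 of them lower on knockdown, against 162 of all genes (1.31%). With 1 control library, this test estimates its spread on 1 residual degree of freedom from the pair of knockdown libraries. METTL3 did not pass either (log2 difference -1.54, SE 0.327, limma adjusted p = 1.00). The lack of calls therefore does not show that hosts were unaffected.

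Host values lay slightly below the control in both knockdown libraries. Their median log2 difference from the control was -0.07 in knockdown 1 and -0.09 in knockdown 2, and over all genes it was -0.01 and 0.00055. Of the 657 hosts, 395 were lower in knockdown 1 (60.1%, background 52.1%) and 401 in knockdown 2 (61.0%, background 49.7%). Lower in both libraries were 276 hosts (42%, background 30.4%), and higher in both were 136 (20.7%, background 28%). The 2748 sparsely marked genes lay closer to the background, with medians of -0.02 and -0.01, 899 lower (32.7%) and 771 higher (28.1%). Both knockdown libraries were compared with the same single control, so a low or high value in the control moves both differences alike. In bulk RNA, fewer cells with a transcript and less of it per cell cannot be told apart. These medians describe the genes, and no test of the shift was made.

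Hosts with more peaks had medians farther below 0, except that in knockdown 1 the group with 6 or more did not go below the group with 5. In knockdown 1 and knockdown 2 the medians were -0.06 and -0.07 for the 421 hosts with 3 exonic or UTR peaks, -0.07 and -0.10 for 159 with 4, -0.10 and -0.14 for 49 with 5, and -0.09 and -0.24 for 28 with 6 or more. In the last group 16 were lower in both libraries and 4 higher. The shift also differed with expression. For hosts with a mean under 5 the medians were -0.09 and -0.05 (all genes of that range -0.04 and 0.06), for a mean of 5 to 20 they were -0.07 and -0.12 (all genes -0.03 and -0.01), and for the 76 hosts at 20 or more 0.01 and -0.14 (all genes 0.03 and -0.04). Hosts at 20 or more were thus not below 0 in knockdown 1.

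By class, the cytoskeletal linkers were mostly lower. Of 8 hosts tested 7 were lower in both libraries and 0 higher. The median difference from the control was -0.09 in knockdown 1 and -0.50 in knockdown 2, the library that stood apart. With quantile normalization or median-of-ratios scaling 6 of them were lower in both. The 21 linkers that were not hosts had 7 lower and 3 higher, with medians of -0.09 and -0.05. A lower value was not particular to classes with hosts. Integrins, without a host, had 8 of 10 lower and 0 higher (medians -0.35 and -0.76). Matrix and basement membrane genes, also without one, had 18 of 26 lower and 1 higher (-0.31 and -0.66). Mitochondrial ribosomal proteins, a further class without a host, had 7 of 78 lower and 30 higher. Over all genes tested, 30.4% were lower in both libraries and 28% higher. Giant cadherin hosts had 3 of 5 lower and 0 higher. Among 70 zinc finger hosts 21 were lower and 22 higher, with medians of -0.01 and 0.03 whose signs turned with quantile normalization (0.02 and -0.06) and, in knockdown 1, with median-of-ratios scaling. The 349 zinc finger genes that were not hosts had 111 lower and 96 higher. The 5 hosts of the m6A machinery had 0 lower and 4 higher, and its 16 other genes had 4 lower and 4 higher. The host counts for cadherins and the m6A machinery were the same under both scalings. The summed squamous markers given above were also lower in knockdown 2, and their part in these values was not tested.

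Few hosts differed 2-fold from the control when 1 was added to each value before taking log2. On this scale 0 hosts did so in the same direction in both libraries (background 0.097% lower and 0.0323% higher), and with a pseudocount of 0.1 in place of 1 there was 1, lower in both. The counts of this paragraph are all on the first scale, and ratios of the values as deposited can pass 2 where they do not. In knockdown 1, 1 host was at least 2-fold lower (background 0.404%) and 0 higher (0.242%). In knockdown 2, 1 was lower (0.978%) and 7 were higher (3.64%). PXDN, a peroxidase that cross-links collagen in basement membranes, was the one lower in knockdown 1, at 6.04 in the control, 1.89 and 2.84. The control was above both knockdown libraries, and more than 2 times each of them in the values as deposited. ARSJ, a sulfatase, was at 11.40, 10.10 and 5.12, low in knockdown 2 alone. Those higher in knockdown 2 were HSPA1B, RHOB, a small GTPase (14.73, 22.24 and 30.57), GAS1, a hedgehog coreceptor (0.69, 1.47 and 4.47, more than 2 times the control in both as deposited), DIRAS1, a Ras-like GTPase (0.58, 0.69 and 5.88), KLF9, a transcription factor (0.83, 0.33 and 2.96), the glycosyltransferase MGAT3 (0.66, 0.74 and 2.37) and PCDH10, a protocadherin (0.11, 0.25 and 1.63). All of these except HSPA1B and RHOB were under 1 in the control.

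Named after their values were seen, the 6 hosts whose smaller difference of the 2 libraries was largest, among those at 5 or more in a library, are given next. PXDN, with 2 members, had a log2 difference of -1.08 (SE 0.325; limma adjusted p = 1.00). FOXL1, a forkhead transcription factor with 1 member, was at 7.55, 4.02 and 3.42. BNC1, a zinc finger protein of basal keratinocytes with 3 members, was at 11.47, 7.26 and 5.69, and CLIP2, a microtubule-binding protein with 2 members, at 10.42, 6.90 and 6.12. In these 3 genes the control was above both knockdown libraries, which lay closer to each other than to it. In the other direction stood RHOB, with 1 member, and CITED2, a transcription coregulator with 2 members (13.42, 21.69 and 19.56). Their limma log2 differences were 0.78 (SE 0.283) and 0.58 (SE 0.240), with an adjusted p = 1.00 for each.

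**Figure D5:**
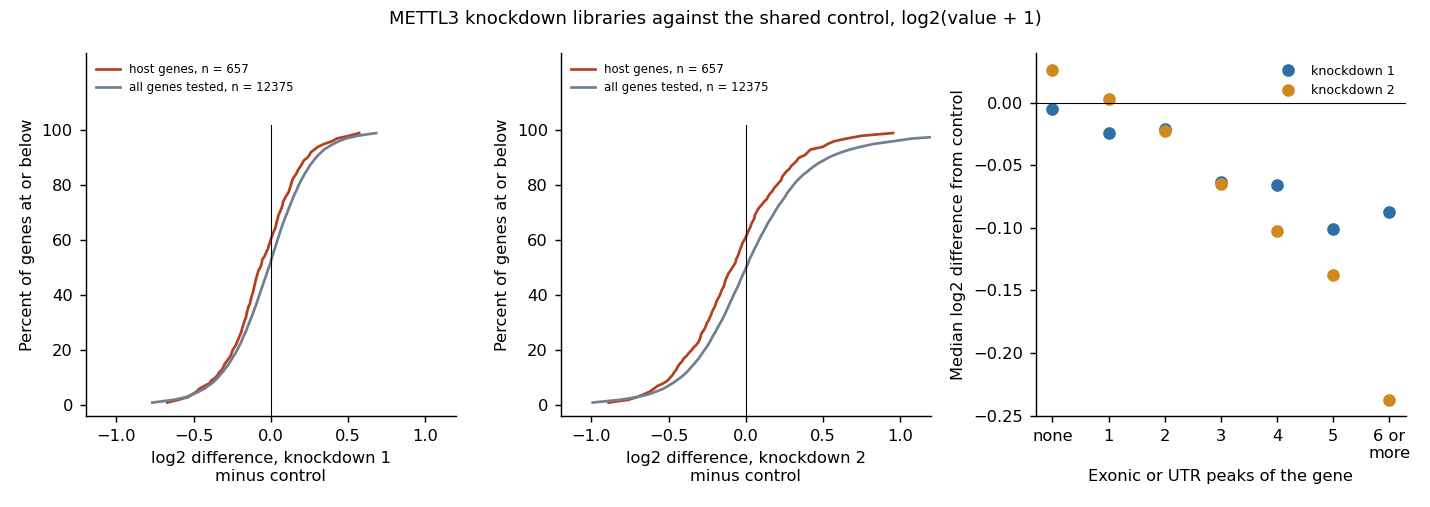
Differences of host genes from the control on the log2(value + 1) scale. The left and middle panels show the cumulative percent of genes at or below each difference in knockdown 1 and knockdown 2, for 657 hosts and all 12375 genes tested, and the right panel shows the median difference by number of exonic or UTR peaks. The host curves lie to the left of those of all genes around the median, and the lowest point is -0.24, for hosts with 6 or more peaks in knockdown 2.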

How the data were processed

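Reads were aligned with TopHat2, counted with HTSeq and peaks called with MACS2, per the submitters' processing notes. For these tools, neither versions nor parameters nor any pooling of the immunoprecipitations is given in the sources used here. The authors deposited 1 peak list, with no score, and 1 table with an expression signal per gene and RNA-seq library in a unit they do not state. Its columns sum to 608291, 617840 and 627152 over 18249 genes, so they are not raw counts, and sequencing depth is unknown. The processing notes name hg38, but the last peak on chromosome 1 ends at 249212571, past the last gene end of that build (248937099). Coordinates are printed as listed, in a build left unnamed, and peak sequences were not analysed here.

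Widths count both end positions, and gaps are the bases between neighbouring coding-exon peaks of a gene. Host symbols matched current names for 649 genes and older ones for 53. Intervals of shares (Wilson) and medians (binomial order statistics) are at 95% and cover counting error only. Those over peaks or gaps treat peaks of the same gene as independent, which they are not, and may be too narrow. Knockdown was tested with limma 3.58.1 (R 4.3.3) with a mean-variance trend on log2(value + 1), for genes at 1 or more in at least 1 library, with Benjamini-Hochberg adjustment at 0.05 over 12375 genes. Differences on this scale understate those of low genes. The script was tested on simulated data. Python 3.11.15, pandas 2.3.3, scipy 1.17.1 and matplotlib 3.10.9 were used.

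Genes named are the 12 hosts with the most members (ties by symbol), the extremes of width and gap, up to 4 hosts per class, the 3 highest and lowest hosts, writer genes, and hosts past the test or 2-fold different in both libraries at 5 or more on the log2(value + 1) scale, of which there were none. Those said to be named after their values were seen, hosts 2-fold different in 1 library, further wide peaks and further low hosts fall outside this rule. The members and gene lists were chosen with earlier results of these data known. Results for 1 gene class and 1 gene are not reported here.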

Additional observations from a re-analysis of the deposited data

How the results depend on the processing

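No host gene passed limma's threshold under any alternative run, and the median host difference kept its sign. Unadjusted p-values under 0.05 fell to 3 hosts without the trend and 2 without the filter. With a mean of at least 5, 149 hosts were lower and 74 higher in both libraries, of 351 tested. With a pseudocount of 0.1 the median was -0.1011, and 1 host was 2-fold lower in both. Leaving out a knockdown library left 395 to 401 hosts lower, 253 to 260 higher, 1 to 1 at least 2-fold lower and 0 to 7 at least 2-fold higher, since a single library then has to pass, and gave medians from -0.0884 to -0.0696. A threshold of 2 peaks gave 3477 members, 1905 hosts and a median distance to the start of 17534 bases, and a threshold of 4 gave 858, 261 and 25965.5 with a median width of 342. Counting coding-exon peaks alone gave 1115, 308 and 25165. Chosen after seeing the data, hosts at 1 or more in the control alone were 631 with 1541 members, at a median width of 363 and a median gap of 647 bases. Between peak centres the median gap was 1141 bases. The control median of hosts was 0.8199 times that of sparsely marked genes and 0.5201 times that of genes with no exonic peak, both with the filter; without it the host median of 5.05 was above the 1.18 of genes with no exonic peak. Peaks could not be filtered more strictly because no score was used here. No paired analysis was possible because the control and the knockdown group share fewer than 2 replicate numbers. The cause of these moves was not tested beyond what each setting changes by construction.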

Other observations

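AHNAK, the giant scaffold protein most like AHNAK2, was not a host, because its peaks were all placed elsewhere than in coding exons. The list gives it 11 peaks called intronic, from 445 to 29322 bases from the annotated start, with 6 of the gaps between them under 1000 bases and a median gap of 960.5 bases. Its values in the control, knockdown 1 and knockdown 2 were 30, 25.25 and 18.49, above those of AHNAK2 in each library. Dense series of peaks called intronic were also listed for MORN1 (9 peaks, 5 gaps under 1000 bases; 1.88, 1.75 and 2.61), ADAP1 (6 peaks, 4 such gaps; 16.16, 14.72 and 10.98) and WDR81 (6 peaks, 4 such gaps; 1.49, 1.89 and 2.65). Each peak was annotated to 1 transcript in the list, and whether another transcript of these genes has a coding exon there was not tested. These genes were named after their values were seen.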
